A study of Mus musculus with 16 samples.

Results

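The glutathione S-transferase genes described here are Gsta3 and Gsta4 (alpha class), Gstm1, Gstm2, Gstm3 and Gstm4 (mu class), Gstp1 and Gstp2 (pi class) and Gstt1 and Gstt2 (theta class), 10 genes at 5 loci. Their DNase hypersensitive sites (DHS), short stretches of open chromatin that DNase I cuts readily, were taken as every DHS region that overlapped a gene or the 20 kb on either side of it, which gave 56 of the 51482 regions in the series. DNase-seq was performed on purified liver nuclei of C57BL/6J (B6) mice, the laboratory strain of the reference genome, and of wild-derived CAST/EiJ (CAST) mice, to map open chromatin that differs by sex or strain. All mice were 8 weeks old per the labels, were not given any treatment that the labels name, and their nuclei were digested with 32 U of DNase I. The 4 groups were male B6, female B6, male CAST and female CAST, each of 4 libraries that the authors pooled before peak calling. Each group is therefore represented by a single DHS list, there is no spread between replicates, and every comparison is between lists and without a test.

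Glutathione S-transferases join glutathione to electrophilic compounds, among them reactive drug metabolites and lipid peroxidation products, which are then exported from the cell. Hepatocytes make large amounts of the alpha, mu and pi class enzymes, and several of the genes are induced through NRF2, which binds antioxidant response elements, and through the xenobiotic receptors CAR and PXR. The pi class enzyme is known for its higher level in male than in female mouse liver.

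The sequences below are those on which the comparisons turn. They come from the B6 reference (mm9, the NCBIM37 assembly) and are written 5′ to 3′ on the strand given, and CAST sequence was not analysed here. Capitals mark matches to any of the 7 motifs searched on both strands, namely the antioxidant response element core TGACNNNGC, STAT TTCNNNGAA, C/EBP TTGCNNAA, forkhead TGTTTAC, HNF4 CAAAGTCC, and the palindromic HNF1 and nuclear factor I motifs. The first set holds 151 bp around the summit, the position of most reads, of the regions that were strongest, that differed most between lists, or that were limited to 1 sex or strain. The stretch at the Gstm7 start site was cut to 86 bp to leave out untranslated sequence.
Gsta4, 15 kb upstream, the strongest of the 56 regions (chr9:78023486-78023636, + strand): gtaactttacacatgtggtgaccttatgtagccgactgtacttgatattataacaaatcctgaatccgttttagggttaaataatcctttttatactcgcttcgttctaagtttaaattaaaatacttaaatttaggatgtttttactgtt
Gsta4, 25.0 kb downstream of its start, stronger in males of both strains (chr9:78065014-78065164, + strand): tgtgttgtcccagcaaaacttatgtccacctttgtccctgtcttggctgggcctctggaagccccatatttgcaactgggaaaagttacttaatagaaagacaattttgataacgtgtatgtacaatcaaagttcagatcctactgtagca
Gsta3, intron, 11.9 kb downstream of its start, stronger in CAST (chr1:21243077-21243227, + strand): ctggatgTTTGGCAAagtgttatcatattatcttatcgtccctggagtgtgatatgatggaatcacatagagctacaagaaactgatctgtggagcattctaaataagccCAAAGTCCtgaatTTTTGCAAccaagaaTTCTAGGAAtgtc
Gstm7 start site, 36.7 kb downstream of the Gstm3 start, the strongest mu region (chr3:107734736-107734821, + strand): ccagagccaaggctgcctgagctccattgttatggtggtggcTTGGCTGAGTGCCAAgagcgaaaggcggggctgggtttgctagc
Gstm4, 12.4 kb downstream of its start, in both B6 lists alone (chr3:107834594-107834744, + strand): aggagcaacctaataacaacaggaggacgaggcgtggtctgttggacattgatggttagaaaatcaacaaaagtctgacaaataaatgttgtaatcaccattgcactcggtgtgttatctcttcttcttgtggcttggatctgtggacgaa
Gstt1, 17.3 kb downstream of its start, in both CAST lists alone (chr10:75242643-75242793, + strand): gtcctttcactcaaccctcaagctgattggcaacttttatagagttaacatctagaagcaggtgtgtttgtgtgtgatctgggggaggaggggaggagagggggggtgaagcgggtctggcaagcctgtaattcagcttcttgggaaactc
Gstt2, 18.5 kb upstream, in both CAST lists alone (chr10:75316689-75316839, + strand): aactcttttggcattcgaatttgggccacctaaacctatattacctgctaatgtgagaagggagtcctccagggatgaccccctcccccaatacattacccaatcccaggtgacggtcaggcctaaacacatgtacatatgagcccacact
Gstp1, 12.9 kb downstream of its start, in both male lists alone, over a short repeat (chr19:4024434-4024584, + strand): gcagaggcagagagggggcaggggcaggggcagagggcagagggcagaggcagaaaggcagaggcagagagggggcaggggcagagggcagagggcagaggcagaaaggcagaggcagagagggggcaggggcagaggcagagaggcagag
Gstp1, 3.3 kb downstream of its start, in both male lists alone (chr19:4033970-4034120, + strand): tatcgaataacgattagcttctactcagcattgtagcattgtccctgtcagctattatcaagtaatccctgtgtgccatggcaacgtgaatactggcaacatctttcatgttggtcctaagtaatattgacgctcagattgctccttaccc
The second set holds the 150 bp immediately upstream of the outermost annotated start site on the strand of the gene, for the pair of pi class genes that are near copies, of which Gstp1 alone had a start-site DHS, for Gstm3, which had none, and for Gsta3, whose start-site region held matches near its summit.
Gstp1 upstream (chr19:4037922-4038071, - strand): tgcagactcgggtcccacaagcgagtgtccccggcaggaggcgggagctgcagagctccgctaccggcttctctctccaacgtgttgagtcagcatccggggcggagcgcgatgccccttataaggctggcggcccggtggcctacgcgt
Gstp2 upstream (chr19:4042222-4042371, - strand): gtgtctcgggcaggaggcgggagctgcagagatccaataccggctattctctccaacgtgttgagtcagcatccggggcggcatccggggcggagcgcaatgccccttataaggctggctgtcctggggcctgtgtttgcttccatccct
Gstm3 upstream (chr3:107772202-107772351, - strand): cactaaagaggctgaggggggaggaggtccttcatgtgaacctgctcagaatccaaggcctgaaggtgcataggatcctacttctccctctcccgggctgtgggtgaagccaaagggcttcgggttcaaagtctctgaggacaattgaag
Gsta3 upstream (chr1:21230520-21230669, + strand): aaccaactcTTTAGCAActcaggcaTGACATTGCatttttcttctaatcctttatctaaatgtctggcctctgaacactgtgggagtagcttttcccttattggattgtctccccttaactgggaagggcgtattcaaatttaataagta

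The lists differed in size and depth, and this bears on every presence and absence below. They held between 24888 DHS (female CAST) and 39562 DHS (male CAST), and the genome-wide background recovered from the peak scores, which follows read depth, was 15.4 reads (B6 males), 13.9 (B6 females), 14.3 (CAST males) and 7.94 (CAST females). A DHS lay within 500 bp of the start of all 8 hepatocyte markers in both male lists, of 7 in female B6 and of 6 in female CAST, which goes with the liver label. It lay at none of 4 Kupffer cell and none of 4 lymphocyte markers in any list, at 1 of 4 bile duct markers in each list (Sox9), and at 1 of 4 stellate cell markers in all but female CAST (Reln). Of 4 sinusoidal endothelium markers, all 4 had a start-site DHS in male B6, whereas 2 had one in B6 females and 1 (Stab2) in either CAST list, and their part in the results was not tested.

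The 10 genes were surrounded by many DHS regions, most of which were open in more than 1 group. The male lists held 51 of the 56 regions in B6 and 45 in CAST, and the female lists held 33 in B6 and 31 in CAST. Of all regions of the series, 74.6% and 76.2% were in the male lists of B6 and CAST and 50% and 47.3% in the female lists. All 4 lists held 24 regions (42.9%, compared with 35.6% of regions in the whole series), 11 were in 3 lists, 10 in 2 lists and 11 in a single list (19.6%, compared with 35.2%). Of these 11, 9 were in male B6 only, which is 16.1% of the 56 regions beside 14.2% of regions in the whole series. Since each list averages the nuclei of whole livers, fewer cells open at a site and less opening per cell cannot be told apart.

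The loci were not equally covered. The Gstm cluster on chromosome 3 (107745251 to 107847812 from Gstm3 to Gstm4) held 20 regions, the Gstt locus on chromosome 10 held 15, the Gstp locus on chromosome 19 held 9, Gsta3 on chromosome 1 held 8 and Gsta4 on chromosome 9 held 4. In the Gstt locus 12, 11, 13 and 12 regions were found in male B6, female B6, male CAST and female CAST, so that the lists held nearly equal numbers. In the Gstp locus the counts were 8, 6, 9 and 3 in the same order. At Gsta3 they were 8, 3, 5 and 4, with the highest count in male B6. The windows held from 4 regions (Gsta4) to 11 regions (Gstm3), compared with a median of 2 over 22380 protein-coding genes, and Gstm3, a long gene in a dense cluster, was at the 97.4th percentile of genes. Because the genes stand close together, 16 of the 56 regions lay in the windows of more than 1 member, and for 24 of the 56 the nearest start site was that of a gene outside the set. By the summit, 25 regions were intergenic, 22 intronic, 8 in an untranslated region and 1 in a coding exon.

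**Figure D1:**
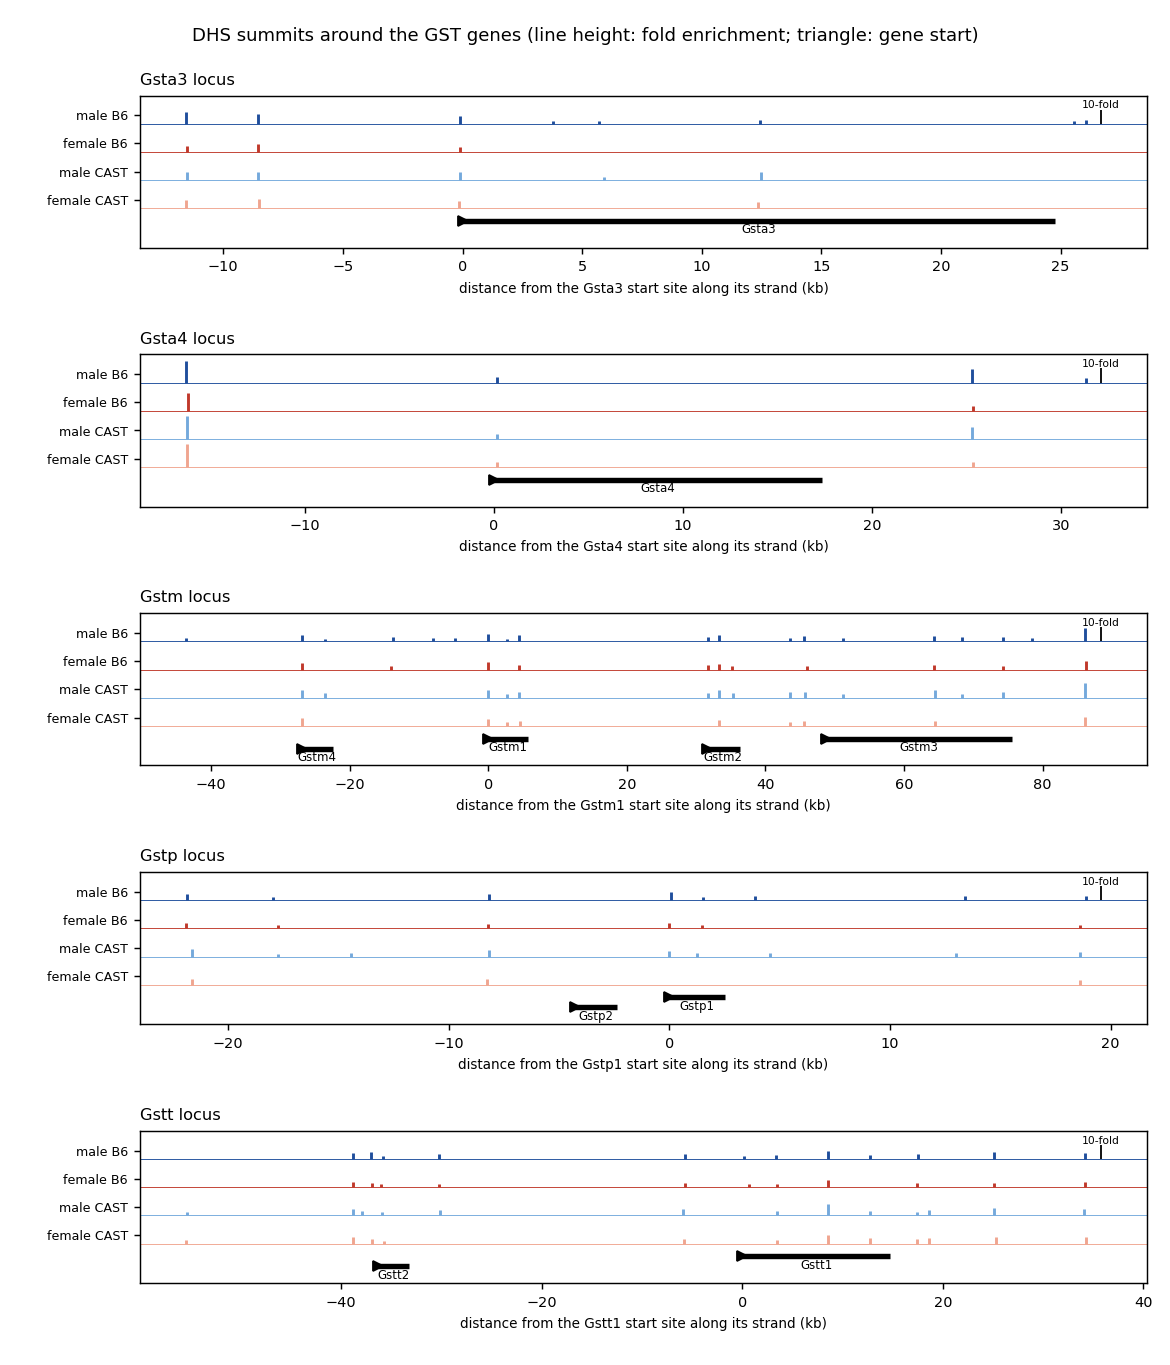
DHS summits at the 5 loci, drawn against the distance in kb from the start site of the first named gene along its strand, in 4 tracks, 1 for each list. The height of a line is the fold enrichment (scale bar, 10-fold), thick black bars are the genes and triangles their starts; the tallest lines in all 4 tracks stand 15 kb upstream of Gsta4.

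The start sites of the genes differed in whether they were open at all. A DHS lay within 500 bp of an annotated start site for 8 of the 10 genes (B6 males), 7 (B6 females), 7 (CAST males) and 5 (CAST females), beside 50.6%, 46.3%, 49.8% and 43.4% of all protein-coding genes. Gsta3, Gstm1, Gstm4 and Gstt2 had one in all 4 lists, which is 4 of 10 genes beside 41.7% of all protein-coding genes. No list held a DHS at the start sites of Gstm3 and Gstp2. The sequence at both is largely unique, since 99.9% of the 50-base words within 500 bp of the Gstm3 start and 97.0% of those at the Gstp2 start occur once in the genome. Within the Gstp1 and Gstp2 genes the share of unique words was 64.9% and 53.2%, and the aligned parts of the genes were 96.0% identical, so that uniquely mapped reads cover these gene bodies in part.

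Start-site DHS are given as fold enrichment, the reads piled up at the summit divided by the local background of the same list, after adding 1 to each. Gsta3, an alpha class enzyme that is abundant in liver, had 5.78 (B6 males), 3.42 (B6 females), 5.89 (CAST males) and 4.94 (CAST females) (1, 21230189 to 21230977). Gstm1, the main mu class enzyme of liver, had 4.92, 5.56, 5.49 and 4.63 in the same order (3, 107820445 to 107821291). Gstm4 had 4.86, 4.61, 5.41 and 5.51 (3, 107847445 to 107848284). The lowest value was in female B6 for Gsta3 and Gstm4 and in female CAST for Gstm1.

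Gsta4, which acts on the lipid peroxidation product 4-hydroxynonenal, had a start-site DHS of 4.05 (B6 males), 3.19 (CAST males) and 3.69 (CAST females), and none in female B6 (9, 78039456 to 78040118). Gstm2 had 3.24, 3.28 and 3.54 in male B6, female B6 and male CAST and none in female CAST (3, 107788866 to 107789445). Gstp1, the pi class enzyme, had 5.52, 3.89 and 4.26 in the same 3 lists and none in female CAST (19, 4037605 to 4038204). Each of these genes thus lacked a start-site DHS in 1 female list.

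Of the theta class genes, whose enzymes act on small halogenated compounds, Gstt1 had the weakest start site of the 8 genes with one. It had separate weak DHS in a coding exon 5 bp inside its start in male B6, at 1.90, and over a start site within an intron in female B6, at 2.50, and none in the CAST lists. The Gstt2 start site was flanked by a region 0.3 kb upstream at 4.94 (B6 males), 3.07 (B6 females), 2.84 (CAST males) and 2.94 (CAST females) (10, 75297937 to 75299354). A region 0.2 kb inside Gstt2 had 2.03, 2.38, 2.12 and 2.14, which was low in every list. The upstream region was higher in male B6 than in the other lists.

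The genes without a start-site DHS had the nearest regions within 4 kb. The region nearest to the Gstm3 start lay in an intron 2169 bp from it, at 2.37 in male B6 and 2.62 in male CAST and in neither female list. A region 2.6 kb upstream of that start (3, 107774784 to 107775551) was in all 4 lists, at 3.93 (B6 males), 2.61 (B6 females), 4.08 (CAST males) and 3.47 (CAST females). For Gstp2 it lay 3.6 kb upstream (19, 4045802 to 4046650), at 4.67, 2.88, 4.92 and 3.84 in male B6, female B6, male CAST and female CAST. Open chromatin upstream of the pi class pair was thus present in every list although the Gstp2 start itself was not called.

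Other genes of the pathway were compared by the presence of a start-site DHS. Of 16 further glutathione transferase genes in the annotation, 12, 11, 13 and 9 had one in male B6, female B6, male CAST and female CAST, and 3 had none in any list (Gsta1, Gstt4 and Hpgds). Gstz1, the zeta class enzyme of tyrosine breakdown, had 9.82, 8.25, 6.18 and 6.15, and the microsomal Mgst3 had 10.8, 7.21, 12.0 and 10.6, all higher than any start site of the 10 genes in the same list. Of 13 genes that make, recycle or use glutathione, 10 had a start-site DHS in all 4 lists, among them Gclc and Gclm, the subunits of the rate-limiting enzyme of glutathione synthesis, and Gss and Gsr. Ggt1 and Slc7a11 had none in any list. All 12 regulators, including Nfe2l2 (NRF2), Keap1, Nr1i2 (PXR), Nr1i3 (CAR) and Ahr, had one in all 4 lists.

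The strongest region in most loci lay away from the start site of a member. At Gsta4 it lay 15 kb upstream (9, 78023182 to 78024812), over the start of the lincRNA C920006O11Rik, at 15.1 (B6 males), 12.3 (B6 females), 16.4 (CAST males) and 16.7 (CAST females). It was among the strongest DHS of each list, at the 99.6th to the 99.9th percentile. Its sequence is given above and held none of the motifs searched, and 87.7% of the 50-base words of the whole region were unique.
In the Gstm cluster the strongest region was that at the Gstm7 start (3, 107734377 to 107735420), at 9.68, 6.01, 10.2 and 6.36 in male B6, female B6, male CAST and female CAST, with higher values in both male lists. After the scaling described below for the overall difference between lists, the log2 ratio of male to female was 0.26 in B6 and 0.42 in CAST, under 1.5-fold in both. At the Gstt locus it lay in an intron of Gstt1, 7.1 kb from the start (10, 75251999 to 75253255), at 5.85, 5.07, 8.32 and 6.42, the highest being male CAST.
At Gsta3 no region was the strongest in every list. The region 7.9 kb upstream (1, 21221719 to 21222783), at 7.10, 5.82, 5.58 and 6.65, was the strongest in both female lists. In male B6 the region 11.4 kb upstream was higher, at 8.61, and in male CAST the region 11.9 kb downstream, at 6.05. At the Gstp locus the Gstp1 start site had the highest mean log2 over the lists that held it. Among the Gstp regions in all 4 lists it was that 16.7 kb upstream of Gstp2, over the start of BC021614 (19, 4058908 to 4061251), at 4.67, 3.84, 5.45 and 3.97. The Gstp locus had the lowest maximum of the 5 loci, 5.52 at the Gstp1 start site in male B6.

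**Figure D2:**
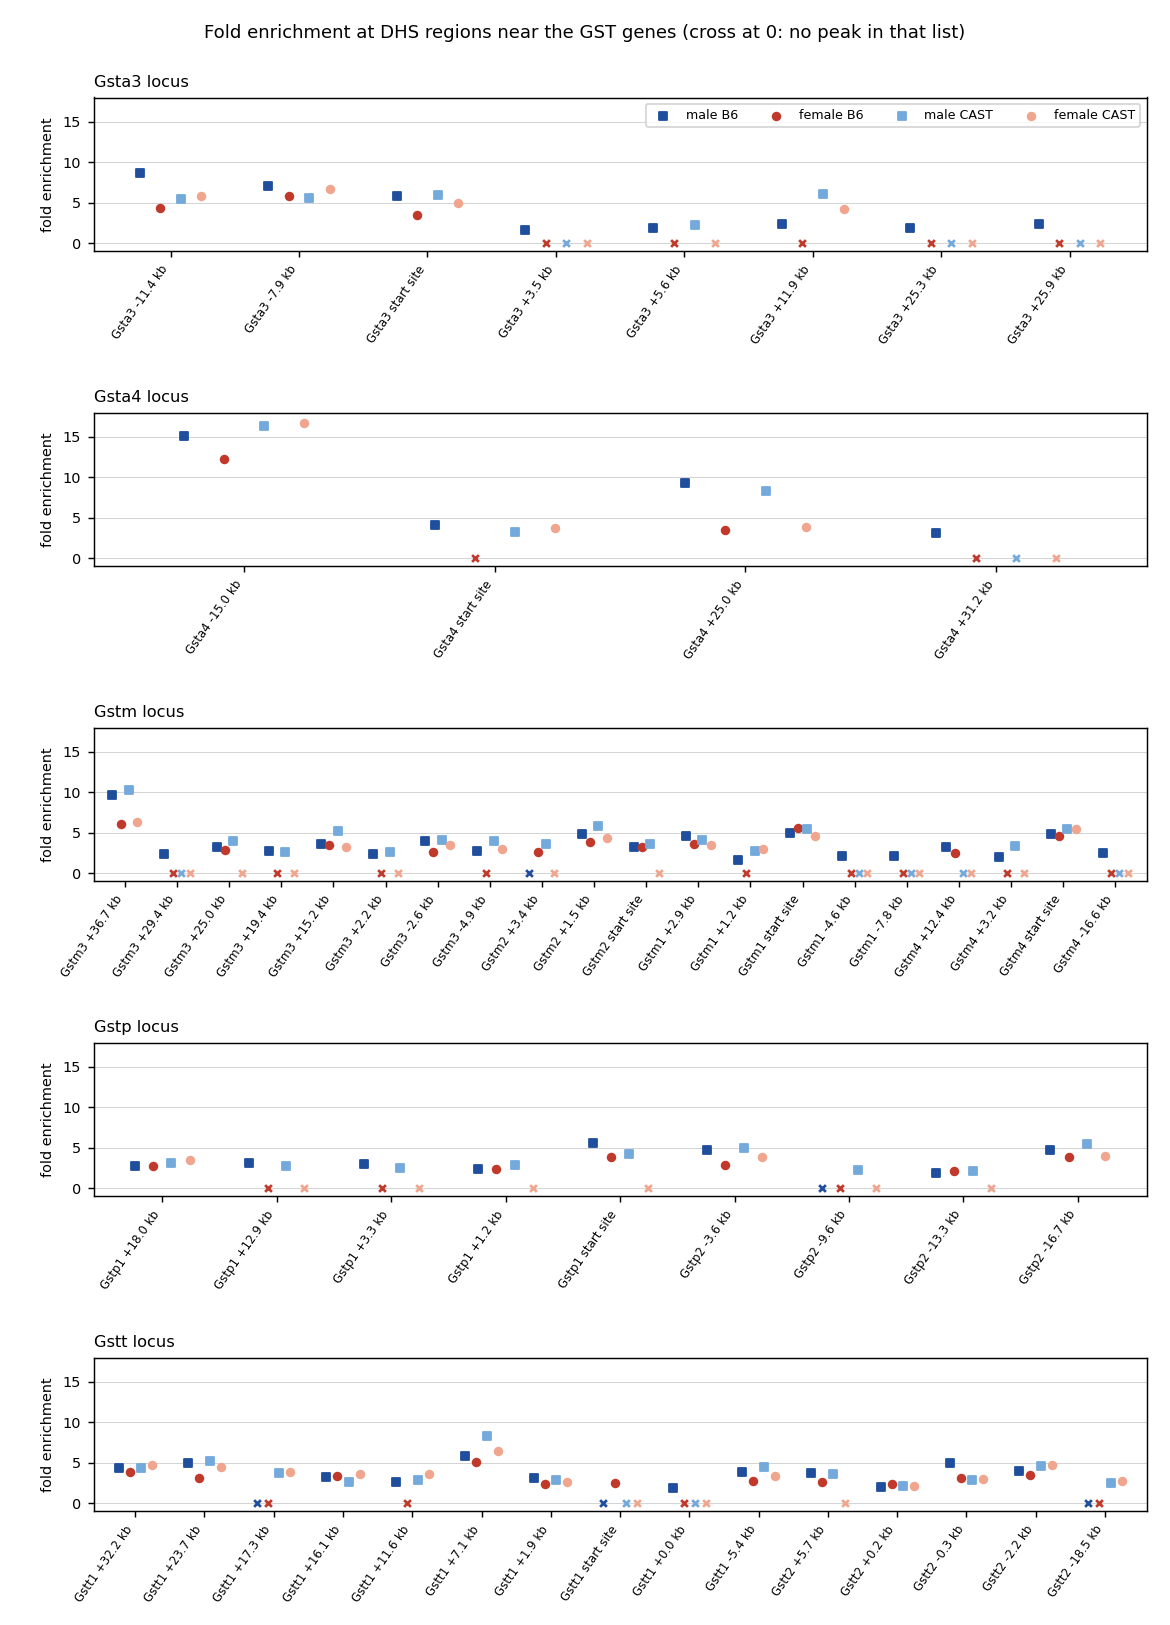
Fold enrichment (vertical axis, linear) of each of the 56 regions in the 4 lists, in 1 panel per locus and ordered along the chromosome; squares are male and circles female, dark colours B6 and light colours CAST, and a cross at 0 is a list without a peak. Regions are named by the nearest gene of the set and the distance in kb from its start to the nearest edge of the region, + being downstream. The region 25.0 kb downstream of the Gsta4 start shows both male values at 8.30 or above and both female values at 3.86 or below.

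Between the sexes, the male list held 93.9% of the female regions in B6 and 100% in CAST, close to the 91.9% and 93.5% over all regions. In B6, 31 of the 53 regions found in either sex were in both lists (58.5%, Wilson 95% interval 45.1 to 70.7%), compared with 58.4% over all regions, and 20 were in the male list only and 2 in the female list only. In CAST, 31 of 45 were in both (68.9%, 54.3 to 80.5%), compared with 55.8% over all regions, and the other 14 were in the male list only. The intervals cover counting error only. The male lists were also the larger ones in the whole series.

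To compare the strength of regions found in both lists, the log2 ratio of the fold enrichments was taken relative to its median over the 18309 regions found in all 4 lists, which removes the overall difference between lists (1.34-fold between male and female in B6 and 1.20-fold in CAST). A scaled ratio of 1.5-fold or more in either direction was counted. In B6, 1 of 31 regions was higher in males and 2 were lower, beside 2.25% and 3.14% of all regions. In CAST, 1 of 31 was higher in males and 2 were lower, beside 3.03% and 2.87%. The median scaled log2 ratio was -0.13 in B6 (range -0.65 to 1.02) and -0.16 in CAST (range -0.71 to 0.84), compared with -0.02 and -0.01 over all regions. By fold enrichment, 3 of the 31 regions were thus past 1.5-fold between the sexes in each strain.

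The highest ratio of male to female in both strains was that of the region 25.0 kb downstream of the Gsta4 start (9, 78064738 to 78065477), between Gsta4 and Gsta1 and 13 kb upstream of the Gsta1 start. Its fold enrichment was 9.30 in male B6 and 3.42 in female B6, and in CAST it was 8.30 (males) and 3.86 (females). Both male lists were more than 2-fold higher than both female lists, and the strains were close within each sex.
The reads at its summit numbered 226 for B6 males (95% Poisson interval 197 to 257), 50 for B6 females (37.1 to 65.9), 188 for CAST males (162 to 217) and 36 for CAST females (25.2 to 49.8). The scaled ratio of male to female was 2.03-fold in B6 (log2 1.02) and 1.79-fold in CAST (log2 0.84). Under a stricter peak threshold (−log10 q of at least 15.7) neither female list held the region, and the ratios had no value. It was the only region of the 24 in all 4 lists that was past 1.5-fold higher in males of both strains, which 0.35% of all such regions were. Gsta1, whose start is the nearest, encodes a further alpha class enzyme and had no start-site DHS in any list. The sequence around the summit, printed above, held none of the motifs searched, and all of its 50-base words were unique.

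By fold enrichment, the regions past 1.5-fold lower in males of B6 were the region inside Gstt2 (scaled log2 -0.65) and the Gstm1 start site (-0.60). Neither was past it by the reads at the summit over the genome-wide background (summit pileup, -0.38 and -0.39) or without scaling (-0.23 and -0.18), and that inside Gstt2 had no ratio under the stricter threshold or in lists of equal size. In CAST they were the Gstt3 start site, 16.1 kb downstream of the Gstt1 start (-0.71), and a region in a Gstt1 intron 11.6 kb from the start (-0.59), which was absent from female B6. Without scaling they were at -0.44 and -0.33. Under the stricter threshold no region was past 1.5-fold between the sexes in CAST, and the Gstt3 start site had no ratio in CAST there or in lists of equal size. The Gstt3 start site was at -0.45 in B6, and by pileup it was past 1.5-fold lower in males of both strains (-0.73 in B6 and -1.30 in CAST). The CAST regions were named after their values were seen.

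**Figure D3:**
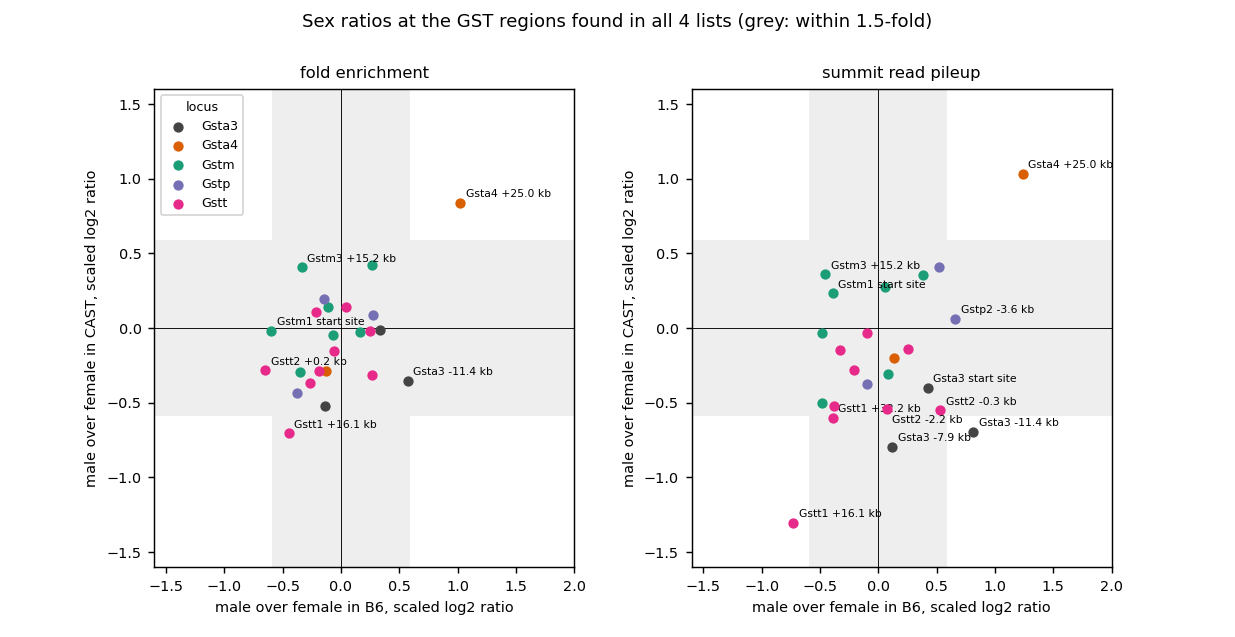
Scaled log2 ratio of male to female in B6 (horizontal) and in CAST (vertical) for the 24 regions found in all 4 lists, by fold enrichment (left) and by summit read pileup (right), coloured by locus; the grey bands mark ratios within 1.5-fold. The region 25.0 kb downstream of the Gsta4 start stands alone in the upper right corner of both panels.

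Both male lists and neither female list held 6 regions (10.7%), beside 9.38% of all regions. They were in introns of Gsta3, Gstm4 and Gstm3 (2 regions) and downstream of Gstp1 (2 regions). No region was in both female lists alone, beside 0.0622% of all regions. The Gstm4 region, 3.2 kb from the start, had 1.99 in male B6 and 3.29 in male CAST. The Gsta3 region, 5.6 kb from the start, had 1.89 and 2.29. The Gstm3 region 19.4 kb from the start had 2.77 and 2.67, and the other Gstm3 region is that nearest its start.
All 6 regions were weak, with a fold enrichment of 3.29 or less. For the Gstp1 regions, the fold enrichment was 3.10 and 2.69 in male B6 and male CAST at 12.9 kb downstream (19, 4024357 to 4025051). At 3.3 kb downstream (19, 4033269 to 4034653) it was 2.93 and 2.48. The summit at 12.9 kb lies in the short repeat printed above, where 71.1% of the 50-base words around the summit were unique, the lowest share of the 56 regions and the only one under 90%.

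As a guide to depth, the fold enrichment of each region found in a single sex was scaled to the other list and compared with the lowest fold at which that list held a peak over genome-wide background (1.94 in female B6, 2.24 in female CAST and 1.90 in male B6). In B6, 6 of the 20 male-only regions were above that value, and in CAST 7 of the 14. The same shares over all male-only regions of the series were not computed, so whether these are usual is not known. Both female-only regions of B6 were above the male B6 value, the intronic region of Gstm2 3.4 kb from the start, at a scaled 3.50, and the Gstt1 start site, at 3.36. Scaling to male B6 raises a female B6 fold 1.34-fold, and the lowest fold of female B6 (1.94) already exceeds that of male B6 (1.90). Any female B6 peak over genome-wide background therefore passes, and the guide cannot decide these 2 regions. The guide holds where the local background is at the genome-wide level, and lists also held peaks under it, such as the region inside Gstt2 in female CAST, at 2.14. Among the male-only regions above it were the Gsta4 start site in B6, at a scaled 3.02, the Gstp1 start site in CAST, at 3.54, and the Gstm2 start site in CAST, at 2.95. Of the 6 regions in both male lists alone, the 2 Gstp1 regions and the Gstm3 region 19.4 kb from the start were above it in B6 and the Gstm4 region in CAST. The Gstp1 region at 12.9 kb (2.236) and this Gstm3 region (2.219) lay just under the limit in CAST (2.237).

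Between the strains, the male lists shared a larger part of these regions than the female lists. In males, 41 of 55 regions were in both strains (74.5%, Wilson 95% interval 61.7 to 84.2%), compared with 60% over all regions. In females, 24 of 40 were in both (60%, 44.6 to 73.7%), compared with 59.1%. The difference between males and females was not tested, and with an overlap of 50% of both peaks the shares were close, at 56.5% and 54.8%.

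Of the 41 regions in both male lists, 3 were at least 1.5-fold higher in CAST and 2 lower, beside 6.54% and 4.56% of all regions. Of the 24 in both female lists, none was higher or lower, beside 4.99% and 3.41%. The medians of the scaled log2 ratio of CAST to B6 were 0.04 in males (range -0.88 to 1.26) and -0.02 in females (range -0.51 to 0.28). No region was past 1.5-fold higher in CAST in both sexes, beside 2.15% of all regions, so that each call below rests on males alone.

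The largest ratio belonged to a region in an intron of Gsta3, 11.9 kb downstream of its start (1, 21242585 to 21243538). Its fold enrichment was 2.39 (B6 males), 6.05 (CAST males) and 4.16 (CAST females), and female B6 had no peak there. The summit held 57, 122 and 42 reads in these lists. CAST was thus higher than B6 in males (2.39-fold after scaling, log2 1.26), and in females the CAST value scaled to the B6 list was 3.50, above the 1.94 at which that list held peaks. All 7 of the regions found in female CAST and not in female B6 were above that value. The male B6 peak was weak (−log10 q of 6.67), and under the stricter threshold and in lists of equal size (24888 peaks each) it was left out, so that the ratio in males had no value there. The sequence around the summit held matches to C/EBP at 2 places, to HNF4 at 1 and to STAT at 1, which was more kinds of match than in any other region of the 56. It was named after its values were seen, as were the Gstm1 region and the region upstream of Gsta3 that follow.
Also higher in CAST males were intronic regions of Gstm1, 1.2 kb from the start, at 1.65 in male B6 and 2.75 in male CAST (scaled log2 0.65), and of Gstm4, at 3.2 kb (0.64), and neither had a ratio under the same stricter threshold or in lists of equal size. Lower in CAST males were the region upstream of Gstt2, at 4.94 in male B6 and 2.84 in male CAST (-0.88, with no value under the stricter threshold or with an overlap of 50% of both peaks), and a region 11.4 kb upstream of Gsta3, at 8.61 and 5.43 (-0.75). At the Gstt2 region the summit of the male CAST peak lay away from the others, so that the summits spread over 969 bp, the widest of the 24 regions in all 4 lists.

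Few regions were limited to a strain in both sexes. Both B6 lists and neither CAST list held 1 region (1.79%), beside 3.32% of all regions. It lay between Gstm1 and Gstm4, 12.4 kb downstream of the Gstm4 start (3, 107834477 to 107835429), at 3.27 in male B6 and 2.48 in female B6. Both CAST lists and neither B6 list held 2 regions (3.57%), beside 3.62%. They lay in an intron of Gstt3, 17.3 kb downstream of the Gstt1 start (10, 75242257 to 75242965), at 3.69 (males) and 3.87 (females), and 18.5 kb upstream of Gstt2 (10, 75316122 to 75316839), at 2.53 and 2.68. These 3 regions were of moderate strength or weak, and the scaled value of each was above the lowest fold at genome-wide background of the lists that lacked it, in both sexes. Whether CAST variants lie in them was not analysed here.

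Fold enrichment divides by a local background, and this background was itself higher in male B6 at some of the loci. At the Gstp regions its median, as a multiple of the genome-wide background, was 1.96 (B6 males), 1.04 (B6 females), 1.30 (CAST males) and 1.09 (CAST females). At the Gsta3 regions it was 1.91, 1.55, 1.36 and 1.46. At the Gstm regions it was 1.25, 1.08, 1.22 and 1.45, with no such excess in male B6. The medians over all regions of the series lay between 1.22 and 1.32.

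**Figure D4:**
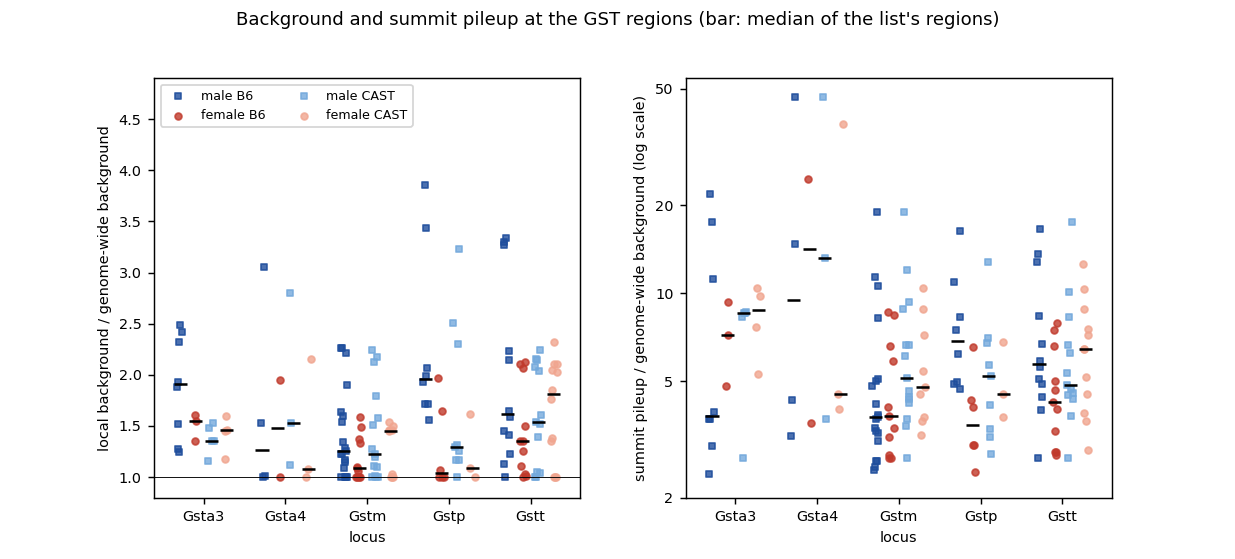
Local background (left, linear axis) and summit read pileup (right, log axis) at each region of the 5 loci, both divided by the genome-wide background of the list; squares are male and circles female, dark colours B6 and light colours CAST, and black bars are medians. At the Gstp regions the local background of male B6 lies between 1.55 and 3.85 times the genome-wide level, while the median of female B6 is 1.04.

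The summit pileup divided by the genome-wide background, scaled in the same way, was therefore set beside the fold enrichment. At the Gstp1 start site the summit held 168 reads (95% Poisson interval 144 to 195) in male B6, 57 (43.2 to 73.9) in female B6 and 74 (58.1 to 92.9) in male CAST. The scaled log2 ratio of male to female in B6 was 0.08 by fold enrichment and 0.62 by pileup, and that of CAST to B6 in males was -0.46 and -1.14. The local background there was 1.93 times the genome-wide level in B6 males and 1.17 times in CAST males, and in B6 females it was the genome-wide level itself. The start site of Gstp1 was thus past 1.5-fold higher in B6 males than in both other lists by reads at the summit, and by fold enrichment it was not.
The region 3.6 kb upstream of Gstp2 moved in the same way between the sexes in B6, from 0.28 by fold enrichment to 0.66 by pileup (127 reads in male B6 and 42 in female B6). In CAST its ratio of male to female was 0.09 and 0.06. The region 25.0 kb downstream of the Gsta4 start stayed higher in males by pileup, at log2 1.24 in B6 and 1.03 in CAST.

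By pileup, 4 of the 31 regions were higher in males and 2 lower in B6, beside 2.46% and 10.3% of all regions. The 4 higher ones were the region 25.0 kb downstream of the Gsta4 start, the Gstp1 start site, the region 3.6 kb upstream of Gstp2 and the region 11.4 kb upstream of Gsta3 (log2 0.81), and the lower ones were the Gstm2 and Gstt3 start sites (-0.82 and -0.73). In CAST 1, the same Gsta4 region, was higher and 8 were lower, beside 3.67% and 7.89%, and 5 of the 8 lay in the Gstt locus.
Between the strains, 3 regions were higher and 7 lower in CAST males by pileup, beside 11.3% and 8.1%. The 7 comprised 2 regions upstream of Gsta3, the Gstp1 start site and both male-limited Gstp1 regions, and 2 regions at Gstt2. At the region upstream of Gstt2 the local background was 3.29 times the genome-wide level in male B6 and 2.15 times or less in the other lists. In females none was higher and 1 lower (the Gstm1 start site, -0.63), beside 8.69% and 6.61%. The Gsta3 region at 11.9 kb stayed higher in CAST males by pileup, at log2 1.14.

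Positions of the regions were compared by their summits. For the 24 regions found in all 4 lists, the summits of the lists lay within a median of 92 bp of each other, compared with 91 bp for all such regions. Their median width was 732 bp (B6 males), 590 bp (B6 females), 645 bp (CAST males) and 517 bp (CAST females), narrower in the female lists in both strains, as over all such regions (803, 646, 788 and 599 bp).
Within 100 bp of the summit, C/EBP letters were found in 8 of the 56 regions (14.3%, compared with 11.6% of all regions), among them the Gsta3 and Gsta4 start sites. The antioxidant response element core was found in 3 (5.36%, compared with 9.22%), which were the Gsta3 start site, where it lay 3 bp from the summit, the Gstm7 start site and an intronic region of Gstm2. STAT letters were found in 2 (3.57%, compared with 7.02%), HNF4 in 2 (3.57%, compared with 2.09%), forkhead in 1 (1.79%, compared with 4.47%) and HNF1 in none (0.0214% of all regions). The nuclear factor I motif was found in 1, the Gstm7 start site, beside 0.0466% of all regions.
The Gstp1 and Gstp2 upstream sequences printed above matched at 111 of 124 aligned bases (89.5%), and neither held any of the motifs in the letters searched. Both held TGAGTCAGC, which differs from the antioxidant response element core as searched only by a G in place of the C. Such variants were not counted, so the search does not show that these sequences lack an element of this kind. A match describes letters in the reference sequence and not a bound site.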

How the data were processed

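DNase-seq was measured in liver nuclei of 16 mice, 4 libraries for each sex and strain, grouped by the library titles. Per the study's methods, the authors mapped uniquely aligned reads (B6 to mm9, CAST to mm9 carrying CAST variants, with coordinates converted back to mm9), merged the 4 libraries of each group, called peaks, and removed blacklisted regions and peaks made of duplicated reads. The submitters' processing notes name Bowtie2 and MACS2. Merging means that differences between animals are not visible and that a deeper group can yield more peaks.

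The deposited fold enrichment is a ratio, (summit pileup + 1) divided by (local background + 1). The deposited lists also hold each peak's −log10 p-value and −log10 q-value against its own list's background, and the distance of its summit from the peak start. All values were used as deposited, and 0 columns lacked a group. The fold and the p-value together fix pileup and background. Recovered pileups were whole to within 0.02 reads at 99.9% of the peaks of both male lists and at 100% for both female lists.

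Peaks of the 4 lists sharing 1 bp or more were merged into 51482 regions, and those overlapping a member gene (GENCODE annotation of mm9) or the 20 kb on either side were kept. The fold of a region is that of its highest peak in a list. Ratios were scaled to their median over the 18309 regions in all 4 lists. Shares carry Wilson 95% intervals and pileups exact Poisson 95% intervals, both for counting error only. With 1 list per group no test was made. Named regions were the start-site region of each gene (within 500 bp, or else the nearest), the highest of each locus, and those limited to, or past 1.5-fold in, 1 sex in both strains or 1 strain in both sexes. The member genes, gene lists and motifs were chosen with earlier results of these data known. Alternatives were an overlap of 50% of both peaks, a stricter threshold, lists of equal size, 5 kb windows, leaving out regions under 90% unique 50-mers, no scaling, and pileup over genome-wide background. Joining, ratios, pileup recovery and word counts were tested on simulated data. Python 3.11.15, numpy 2.4.6, scipy 1.17.1 and matplotlib 3.10.9 were used. A promoter table of another assembly was not used here.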

Additional observations from a re-analysis of the deposited data

Results flagged for a closer look

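At 2 regions the scaled log2 ratio of male to female had opposite signs in B6 and CAST and differed by at least 1.5-fold between the strains. At the region 11.4 kb upstream of Gsta3 (1, 21218775 to 21219319, in an intron of Tmem14a) it was 0.57 in B6 and -0.35 in CAST, a difference of 0.93. The fold enrichments were 8.61 (B6 males), 4.32 (B6 females), 5.43 (CAST males) and 5.77 (CAST females), so that male B6 was the highest list. By summit pileup the ratios were 0.81 and -0.69. At the region in an intron of Gstm3, 15.2 kb from its start (3, 107756239 to 107756925), the ratio was -0.34 in B6 and 0.41 in CAST, a difference of -0.74. Its fold enrichments were 3.63, 3.42, 5.22 and 3.27 in the same order, with male CAST the highest, and by pileup the ratios were -0.45 and 0.36. Without scaling they were 0.09 and 0.67, both higher in males, so that the opposite sign there rests on the scaling. With 1 list per group these differences were not tested. Such pairs made up 2 of the 24 regions (8.33%), beside 6.9% of the 18309 regions of the series found in all 4 lists.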

How the results depend on the processing

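The 56 regions became 30 under the stricter threshold (−log10 q of at least 15.7). There the share of regions in both sexes of CAST was 44%, and the counts past 1.5-fold were 1 between the sexes in B6, 0 in CAST, and 1 between the strains in males. There the region 25.0 kb downstream of the Gsta4 start was in neither female list, so its ratio of male to female had no value, and neither had the ratio between male strains upstream of Gstt2, which the 50% overlap also lost. The 3 regions higher in CAST males (Gsta3 at 11.9 kb, Gstm1 at 1.2 kb and Gstm4 at 3.2 kb) and the sex ratios at the Gstt3 start site in CAST and inside Gstt2 in B6 had no value there or in lists of equal size. In lists of equal size (24888 peaks) the share in both sexes of B6 was 75.7% and the count between the strains in males was 2. With an overlap of 50% of both peaks the share in both strains was 56.5% in males and 54.8% in females. Without scaling, the medians were 0.30 and 0.11 for male to female in B6 and CAST, and 0.12 and 0.23 for CAST to B6 in males and females. There 8 regions were past 1.5-fold between the sexes in B6, all of them higher in males. By summit pileup the median for CAST to B6 in males was -0.22, and the counts past 1.5-fold were 6 and 9 between the sexes in B6 and CAST, and 10 and 1 between the strains in males and females. The cause of these changes was not tested. The 5 kb window held 38 regions, with medians of -0.19 and -0.10 for male to female in B6 and CAST and 0.06 and -0.09 for CAST to B6 in males and females, and its counts past 1.5-fold were 2, 2, 4 and 0. Leaving out the 1 region under 90% unique 50-mers around its summit moved no count past 1.5-fold. No region past 1.5-fold by scaled fold enrichment changed direction under any alternative that held it, whereas the region inside Gstt2, past it by pileup for CAST to B6 in males (-0.64), was at 0.06 by fold enrichment without scaling. No paired analysis was possible because each group has 1 pooled list, which also means that leaving out single replicates was not possible. By the guide to depth, 6 of the 20 male-only regions of B6 and 7 of the 14 of CAST were above the lowest fold at which the female list held a peak over genome-wide background. No such share was computed over all male-only regions of the series.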
